A study of Mus musculus with 18 samples.

Results

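The genes described here are 10 enzymes and transporters of glutathione metabolism and of the Nrf2 antioxidant response: Gclc, Gclm, Gss, Slc7a11, Gsr, Nqo1, Srxn1, Txnrd1, G6pdx and Me1. They were taken by gene symbol from an expression table of 19326 rows, and all 10 were found, once each. Glutathione is the main small thiol that cells use against oxidants and electrophiles. It is built from glutamate, cysteine and glycine, and its oxidised form is recycled with NADPH. Nrf2 (gene Nfe2l2) is a transcription factor that Keap1 holds at low levels until oxidants or electrophiles modify Keap1, after which Nrf2 pairs with small Maf proteins on antioxidant response elements and raises genes of this set. In the spleen, red blood cells and their precursors, phagocytes that take up old red cells, and neutrophils all depend on this supply of reducing power.

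The study sequenced spleen RNA of ICR mice (outbred animals) at an age of 10 weeks, with 3 libraries in each of 6 groups. They were HFD+AOS-FMT (high fat diet with FMT from donors given AOS at 10 mg/kg), HFD+control-FMT (the diet with FMT from control donors), HFD+AOS (the diet with AOS at 10 mg/kg), HFD (the diet alone), AOS (10 mg/kg without the diet) and control. AOS is read here as alginate oligosaccharide and FMT as faecal microbiota transplantation. By its title, the study asks whether transplants from AOS-dosed donors counter effects of the diet on the spleen. The labels do not give the length of the diet, the schedule of dosing or transplantation, or the animal behind each library, so the p-values measure the spread between these libraries, which may be technical. All values are FPKM (fragments scaled to transcript length and to library size), a level per transcript length that can be compared between genes. The number of reads behind a value is unknown.

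The libraries carried the markers of spleen: Cd79a of B cells ran from 508 to 1090 FPKM and Spic of red pulp macrophages from 36.2 to 75.2 FPKM. Genes of haemoglobin held between 10.8% (HFD library 3) and 34.3% (control library 1) of the summed FPKM, and HFD libraries 2 and 3 had the lowest shares. Control libraries 1 and 2 stood apart in 10 genes of neutrophil granules, whose mean log2(FPKM + 1) was 8.49 and 6.74 there, against 4.26 in control library 3 and 3.29 to 5.15 in the other 15 libraries. No pair of libraries was near identical. In whole tissue, fewer cells of a type and less RNA per cell cannot be told apart.

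The promoters of the set were searched for letters of the antioxidant response element and of the amino acid response element. Stretches with a match are shown, except for Srxn1, so that these letters can be read. RefSeq windows on GRCm38.p6, from 250 bases before to 50 bases after a start of transcription, existed for 8 of the 10 genes (all but Gclc and Gsr). The core of the antioxidant response element, TGACNNNGC on either strand, was found for 5 of these 8 genes (5 of their 11 windows) and in 12.4% of all 32851 windows. The core of the amino acid response element, TGATGNAA on either strand, was found for 1 of the 8 genes and in 3.97% of all windows. Capitals mark the matches in the stretches below, which run 5′ to 3′ along the strand of the gene.
Gclm, chr3:122245393-122245461, plus strand: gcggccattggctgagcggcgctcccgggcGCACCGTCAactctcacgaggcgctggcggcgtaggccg
Txnrd1, chr10:82859084-82859152, plus strand: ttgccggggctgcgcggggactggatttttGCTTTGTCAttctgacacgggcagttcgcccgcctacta
G6pdx, chrX:74428899-74428967, minus strand: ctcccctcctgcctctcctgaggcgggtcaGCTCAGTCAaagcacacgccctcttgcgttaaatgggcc
Me1, chr9:86695912-86695950, minus strand: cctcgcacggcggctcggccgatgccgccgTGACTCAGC
Slc7a11, chr3:50443623-50443709, minus strand: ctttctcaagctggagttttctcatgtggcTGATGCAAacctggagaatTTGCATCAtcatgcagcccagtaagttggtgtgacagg

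The antioxidant core began 134 bases before the start in Gclm, 92 bases before it in Txnrd1 (in the second of 3 windows), 57 bases before it in G6pdx and 6 bases before it in Me1. In Srxn1 it lay 29 bases after the start. Slc7a11 held the amino acid core in both orientations, the first 66 bases and the second 47 bases before its start. Neither core was in the windows of Gss and Nqo1, which says only that these letters are absent from those 300 bases. A match is a run of letters and was not tested for binding. Other spellings of these elements were not searched.

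All 10 genes were expressed in every library and passed the filter for testing (some group with a mean of 1 FPKM or more), which left 12969 genes. Gclm was the most abundant, with 35.9 to 101 FPKM over the 18 libraries and a median of 59.4 FPKM. G6pdx, Gclc and Txnrd1 followed with medians of 31.1, 24.7 and 21.8 FPKM. Gsr, Gss, Srxn1 and Nqo1 had medians of 10.2, 7.31, 5.96 and 5.94 FPKM, and Me1 and Slc7a11 were lowest at 4.07 and 3.19 FPKM. Control library 1 was the highest of the 18 for Gclm, Gclc, Gsr, Nqo1, Srxn1 and G6pdx, and the lowest for Slc7a11. The same 10 genes are plotted by library in the panels of FPKM by group.

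**Figure D1:**
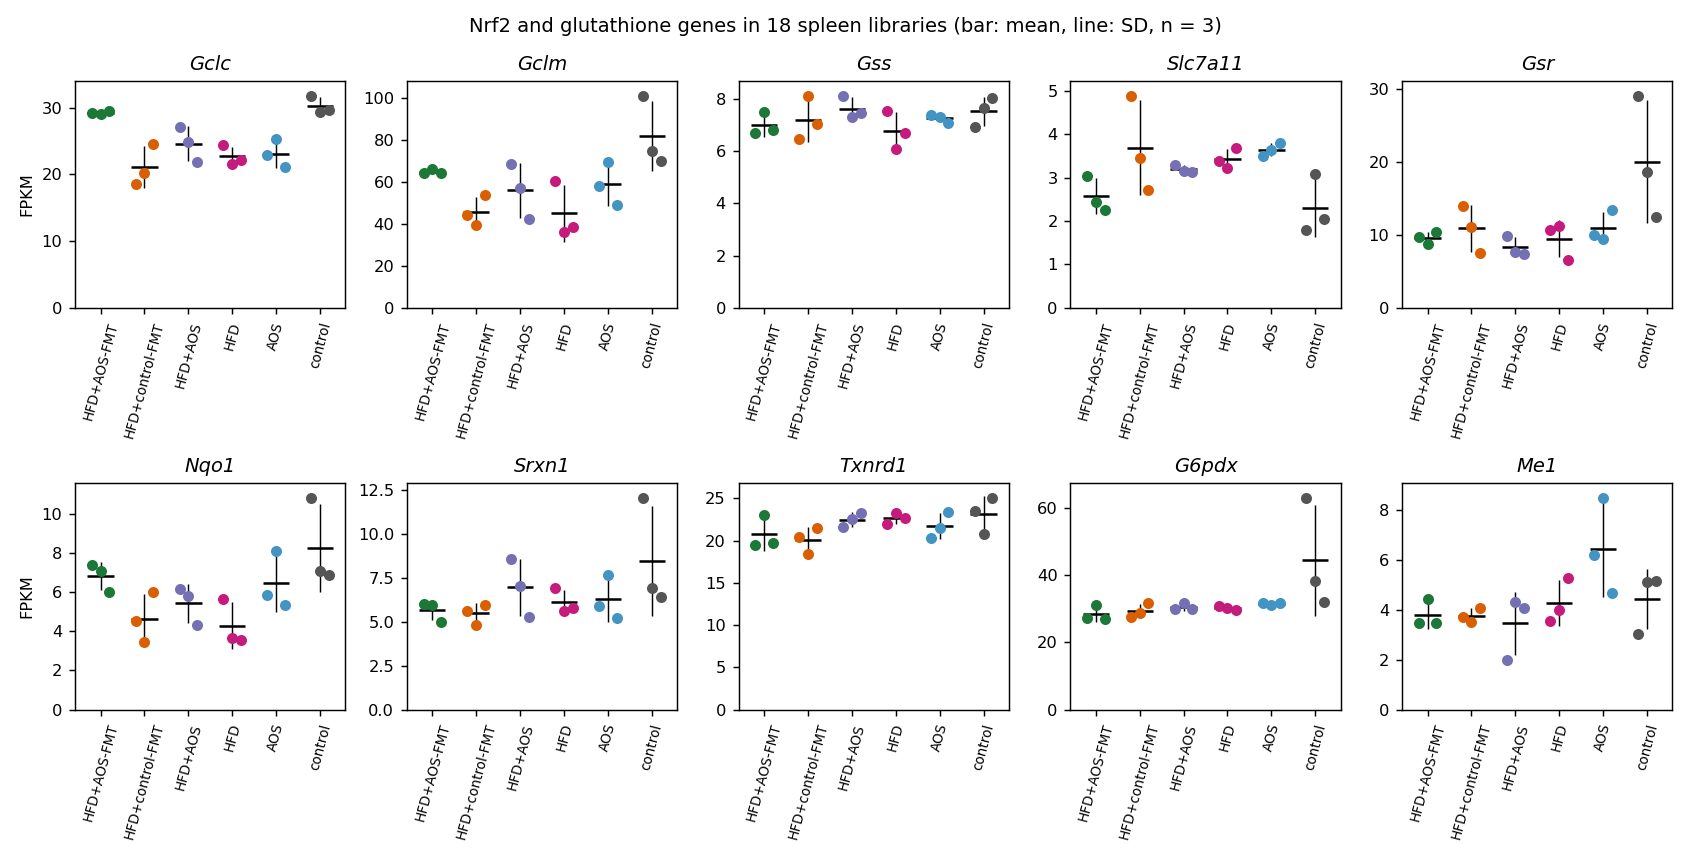
FPKM (vertical axis, linear from 0) of the 10 genes in each of the 18 libraries, by group. Points are libraries, horizontal bars the group means and vertical lines the SD (n = 3). Gclc, Gclm and Nqo1 sit higher in HFD+AOS-FMT than in HFD+control-FMT and HFD without overlap. None of these differences passed an adjusted p of 0.05 (limma, described below). Groups did not overlap for 23.4% of all tested genes against HFD+control-FMT and for 22.9% against HFD. Gsr and G6pdx reach their highest values in control libraries 1 and 2, and Gss and Txnrd1 stay in a narrow range.

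Differences between groups were tested on log2(FPKM + 1) with limma, a linear model fitted across all genes, and a gene is called where its p-value, adjusted over the 12969 genes (Benjamini-Hochberg), was under 0.05. All comparisons with control share the same 3 control libraries, so their values stand side by side and are not independent. In HFD against control, 2 of the 10 genes were called (2.75% of all tested genes), and both, Gclm and Gclc, were lower (1.30% of all genes were called lower). In HFD+control-FMT against control, 2 were called (5.13% of all genes), again Gclm and Gclc and again lower (1.94% of all genes). In HFD+AOS against control, 1 was called (2.09% of all genes), Gsr, which was lower (0.285% of all genes). The median difference of the 10 genes was -0.39 in HFD, -0.51 in HFD+control-FMT and -0.30 in HFD+AOS on the log2 scale, against medians over all tested genes of 0.10, 0.08 and 0.05.

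**Figure D2:**
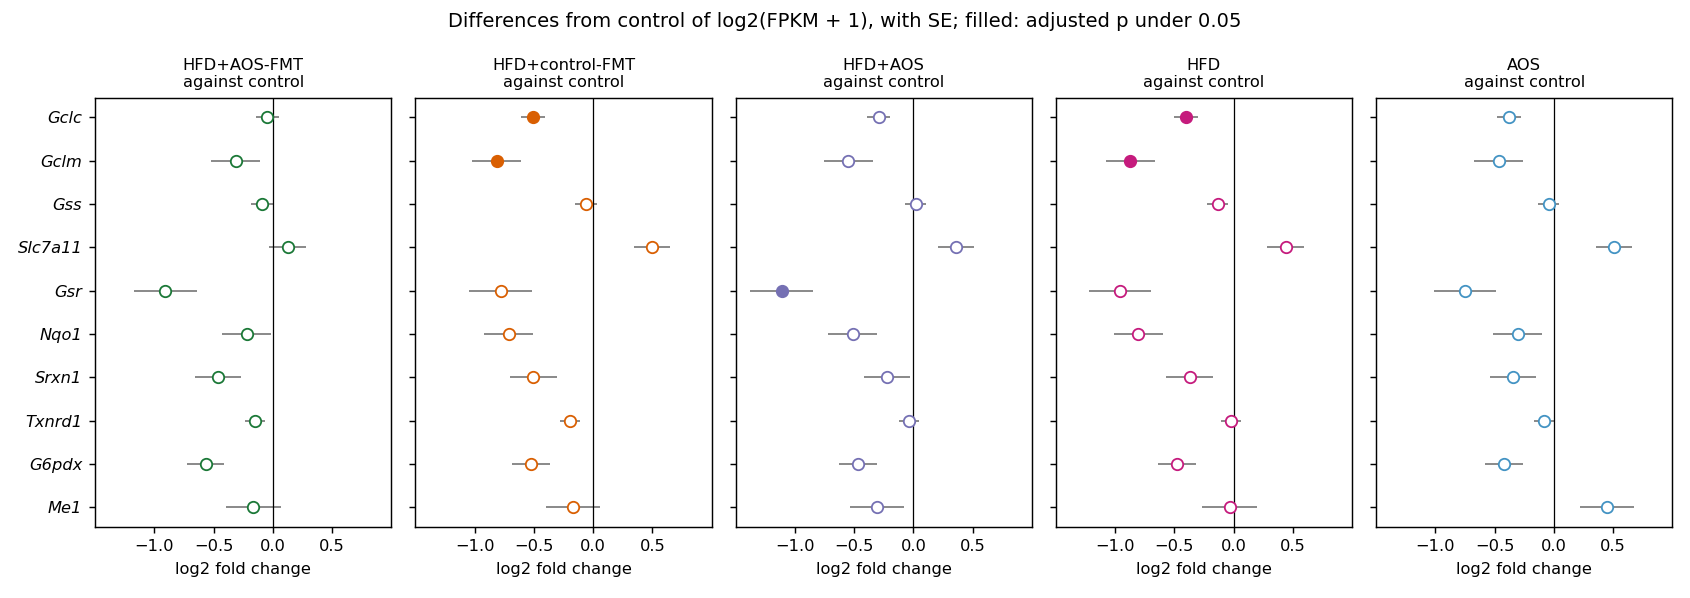
Difference of each gene from control on log2(FPKM + 1) (horizontal axis) with its SE, in 5 panels for the 5 treated groups. Filled points passed an adjusted p of 0.05 (Gclc and Gclm in HFD+control-FMT and HFD, Gsr in HFD+AOS), open points did not. Slc7a11 lies right of 0 in all 5 panels, whereas Gclc, Gclm, Gsr, Nqo1, Srxn1, Txnrd1 and G6pdx lie left of it.

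Gclm encodes the modifier subunit of glutamate-cysteine ligase, the enzyme of the first and rate-limiting step of glutathione synthesis. Its level was 64.3, 66.2 and 64.4 FPKM in HFD+AOS-FMT, 44.5, 39.7 and 53.6 FPKM in HFD+control-FMT, and 68.6, 57.1 and 42.2 FPKM in HFD+AOS. It was 60.6, 35.9 and 38.5 FPKM in HFD, 58.1, 69.5 and 49.2 FPKM in AOS, and 101, 74.9 and 69.8 FPKM in control. The 3 control libraries lay above all 15 others, and the HFD+AOS-FMT libraries lay close together and above every HFD and HFD+control-FMT library. From the lowest, the group means were 45.0 FPKM in HFD, 45.9 in HFD+control-FMT, 56.0 in HFD+AOS, 58.9 in AOS, 65.0 in HFD+AOS-FMT and 81.9 in control. Of neighbours in this order, only HFD+AOS-FMT and control did not overlap.

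Gclm fell in HFD, at 45.0 ± 13.6 FPKM against 81.9 ± 16.8 FPKM in control (SD, n = 3 each), a log2 difference of -0.87 ± 0.21 (SE, adjusted p = 0.0452 by limma). It fell in HFD+control-FMT too, by 0.81 on the log2 scale (adjusted p = 0.0394). In the other comparisons with control it was not called, with differences of -0.55 in HFD+AOS (adjusted p = 0.16), -0.31 in HFD+AOS-FMT (adjusted p = 0.61) and -0.46 in AOS (adjusted p = 0.296).

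Gclc encodes the catalytic subunit of the same ligase. Its level was 29.2, 29.1 and 29.5 FPKM in HFD+AOS-FMT, 18.5, 20.2 and 24.6 FPKM in HFD+control-FMT, and 27.1, 24.9 and 21.8 FPKM in HFD+AOS. It was 24.3, 21.6 and 22.2 FPKM in HFD, 22.8, 25.4 and 21.2 FPKM in AOS, and 31.8, 29.4 and 29.6 FPKM in control. HFD+AOS-FMT overlapped control, and all 12 libraries of the other 4 groups lay below both. Gclc fell in HFD, at 22.7 ± 1.44 FPKM against 30.2 ± 1.31 FPKM in control (SD, n = 3 each), a log2 difference of -0.40 ± 0.10 (SE, adjusted p = 0.0464 by limma). It fell by 0.51 on the log2 scale in HFD+control-FMT (adjusted p = 0.0237). The difference of HFD+AOS-FMT from control was -0.05 ± 0.10 (SE, adjusted p = 0.889).

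The calls of Gclm and Gclc in HFD rested on many single libraries and on the scaling. After median ratio scaling, which moved the median over all genes from 0.10 to 0.00 in this comparison, the differences were -0.98 for Gclm and -0.51 for Gclc, and neither was called. Both held when HFD library 1, HFD+control-FMT library 3, HFD+AOS library 1, HFD+AOS library 3 or control library 3 was left out. Both were lost without any of the other 13, which are all 3 of HFD+AOS-FMT, libraries 1 and 2 of HFD+control-FMT, library 2 of HFD+AOS, libraries 2 and 3 of HFD, all 3 of AOS and libraries 1 and 2 of control. The adjusted p over these 18 fits ran from 0.0102 to 0.218 for Gclm and from 0.0164 to 0.218 for Gclc. Without HFD libraries 2 and 3, the difference was -0.41 (adjusted p = 0.768) for Gclm and -0.30 (adjusted p = 0.7) for Gclc. Without control libraries 1 and 2, it was -0.66 (adjusted p = 0.611) for Gclm and -0.37 (adjusted p = 0.598) for Gclc.

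In HFD+control-FMT the call of Gclc was lost without library 1 or 2 of HFD+control-FMT or library 1 of control, with an adjusted p of 0.00669 to 0.123 over the 18 fits. That of Gclm was lost without 9 libraries, which are all 3 of HFD+AOS-FMT, libraries 1 and 2 of HFD+control-FMT, library 2 of HFD+AOS, library 1 of AOS and libraries 1 and 2 of control. Its adjusted p ran from 0.0163 to 0.166.

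The ratio of Gclm to Gclc, the subunits of 1 enzyme, varied as well. It was 2.21, 2.28 and 2.19 in HFD+AOS-FMT, 2.40, 1.96 and 2.18 in HFD+control-FMT, and 2.53, 2.30 and 1.94 in HFD+AOS. In HFD it was 2.49, 1.66 and 1.74, in AOS 2.54, 2.74 and 2.32, and in control 3.18, 2.55 and 2.36. The lowest ratios were those of HFD libraries 2 and 3, and the highest was that of control library 1. Exons of Gclm overlap those of Gm17494 and Gm6061 by 540 bases, and strand-specific counting is not stated, so a part of its reads could belong to them.

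Nqo1, the quinone reductase whose induction is a standard readout of Nrf2, went with Gclm. Its level was 7.38, 7.11 and 6.02 FPKM in HFD+AOS-FMT, 4.51, 3.44 and 5.99 FPKM in HFD+control-FMT, and 6.16, 5.81 and 4.31 FPKM in HFD+AOS. It was 5.67, 3.67 and 3.54 FPKM in HFD, 5.88, 8.12 and 5.36 FPKM in AOS, and 10.8, 7.08 and 6.86 FPKM in control. Every HFD, HFD+control-FMT and HFD+AOS library lay below every control library, while HFD+AOS-FMT and AOS overlapped control. Nqo1 narrowly missed the threshold in HFD against control, with a log2 difference of -0.80 ± 0.21 (SE, adjusted p = 0.0503), and in HFD+control-FMT against control, with -0.71 (adjusted p = 0.056). It was called in HFD with a pseudocount of 0.1 or 0.5 in place of 1, with a minimum group mean of 5 FPKM, and without HFD+control-FMT library 3, HFD+AOS library 3, HFD library 1 or control library 3. In HFD+control-FMT it was called without HFD+control-FMT library 3, HFD library 1 or control library 3. The fit without control library 3 called 3818 of all genes in HFD and 3104 in HFD+control-FMT.

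The 3 genes were alike over the 18 libraries. On log2(FPKM + 1), Pearson's r was 0.96 between Gclm and Nqo1, 0.86 between Gclc and Gclm and 0.82 between Gclc and Nqo1, and after subtraction of the group means it was 0.92, 0.81 and 0.77. These values describe libraries that share groups and whose depth is unknown. Among all tested genes, the 5 most like Gclm were Carhsp1 (r = 0.99), Sox6, Rhag, Add2 and Ermap (r = 0.98 each), of which Rhag, Add2 and Ermap stand in the list of erythroid markers. The 5 most like Gclc were Slc30a9 (r = 0.95), Tapt1, Foxo3, Spire1 (r = 0.94 each) and Cpeb4 (r = 0.93), none of which stands in a list used here.

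Markers of red cell precursors moved with these genes. For the counts that follow, 2.75% of all tested genes were called in HFD against control (1.30% called lower). In HFD+control-FMT against control it was 5.13% (1.94% called lower). Of the 19 erythroid markers, 10 were called lower in HFD against control and 10 in HFD+control-FMT against control, with medians of -1.08 and -1.0 on the log2 scale. Their summed level was 115000 to 135000 FPKM in HFD+AOS-FMT, 82300 to 94600 in HFD+control-FMT, 61900 to 138000 in HFD+AOS, 41900 to 165000 in HFD, 82800 to 117000 in AOS and 118000 to 178000 in control, and none was at 0. In HFD, library 1 had an erythroid mean log2(FPKM + 1) of 7.48, against 6.34 and 5.95 in libraries 2 and 3, and the same library had the highest Gclm, Gclc and Nqo1 of its group. Markers of other cells were called in the same comparisons. Of 10 T cell markers, 6 were called higher in HFD and 8 in HFD+control-FMT against control (medians of 0.70 in both), and their summed level was 452 to 595 FPKM in HFD+control-FMT, 507 to 558 FPKM in HFD and 227 to 393 FPKM in control. Of 10 genes of cell division, 2 were called lower in each (medians of -0.67 in HFD and -0.52 in HFD+control-FMT), and of 10 mature neutrophil markers, 1 was called lower in HFD and 5 in HFD+control-FMT. The part of these markers in the differences of Gclm and Gclc was not tested.

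Each of the 10 genes was set against the erythroid mean and against the mean of the neutrophil granule genes. That makes 20 relations over 18 libraries, each with a permutation test adjusted over the 20. Libraries were shuffled across groups, so these p-values ignore the groups. With the erythroid mean, Gclm had a Pearson's r of 0.85 (adjusted p = 0.0004) and a Spearman's rho of 0.82 (adjusted p = 0.0014). The r was 0.79 without HFD libraries 2 and 3, the farthest from the median, and 0.76 within groups. For Gclc, r was 0.80 (adjusted p = 0.0008) and rho 0.80 (adjusted p = 0.0014), with 0.86 without those libraries and 0.52 within groups. For Nqo1, r was 0.77 (adjusted p = 0.0008) and rho 0.70 (adjusted p = 0.0099), with 0.65 without them and 0.63 within groups. How much of the differences in Gclm, Gclc and Nqo1 goes with the red cell content was not tested.

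**Figure D3:**
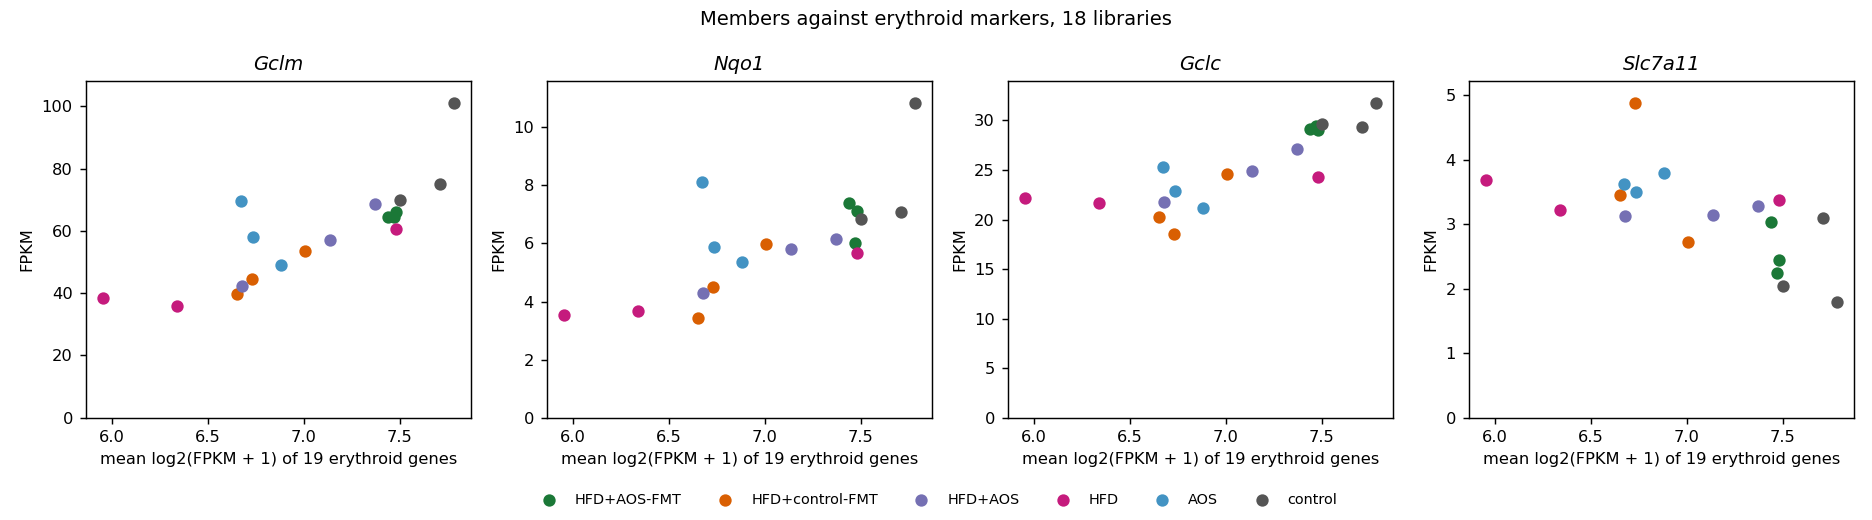
FPKM of Gclm, Nqo1, Gclc and Slc7a11 (vertical axes, from 0) against the mean log2(FPKM + 1) of 19 erythroid markers (horizontal axes) in the 18 libraries, coloured by group. Gclm, Nqo1 and Gclc are higher in libraries with a higher erythroid mean (r of 0.85, 0.77 and 0.80), and Slc7a11 is lower (r of -0.63).

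Slc7a11, the cystine carrier that brings in the cysteine for glutathione, had a negative Pearson's r with both ligase genes over the 18 libraries. Its level was 3.03, 2.44 and 2.25 FPKM in HFD+AOS-FMT, 4.88, 3.46 and 2.72 FPKM in HFD+control-FMT, and 3.29, 3.15 and 3.12 FPKM in HFD+AOS. It was 3.38, 3.22 and 3.68 FPKM in HFD, 3.50, 3.63 and 3.80 FPKM in AOS, and 1.80, 3.09 and 2.04 FPKM in control. Every library of HFD+AOS, HFD and AOS lay above every control library, by a narrow margin over control library 2. From the highest, the group means were 3.69 FPKM in HFD+control-FMT, 3.64 in AOS, 3.43 in HFD, 3.19 in HFD+AOS, 2.57 in HFD+AOS-FMT and 2.31 in control, and of neighbours in this order only HFD+AOS and HFD+AOS-FMT did not overlap.

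No comparison called Slc7a11. The log2 differences from control were 0.44 ± 0.15 (SE, adjusted p = 0.094) in HFD, 0.50 (adjusted p = 0.0659) in HFD+control-FMT and 0.51 (adjusted p = 0.171) in AOS. In HFD+control-FMT it was called without HFD+control-FMT library 3 or without control library 2. Its r with Gclc was -0.81, and -0.52 within groups. With Gclm its r was -0.61, and only -0.24 within groups. With the erythroid mean its r was -0.63 (permutation test, adjusted p = 0.011) and its rho -0.69 (adjusted p = 0.0099), but within groups r was -0.12. Of the 8 genes with a promoter window, Slc7a11 alone held the amino acid core.

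Gss, glutathione synthetase, which adds glycine in the second step, stayed within 6.08 to 8.11 FPKM over the 18 libraries. The group means were 7.0 ± 0.45 FPKM in HFD+AOS-FMT, 7.19 ± 0.84 in HFD+control-FMT, 7.63 ± 0.43 in HFD+AOS, 6.77 ± 0.73 in HFD, 7.25 ± 0.14 in AOS and 7.52 ± 0.56 in control (SD, n = 3 each). All groups overlapped, and the difference of HFD from control was -0.14 ± 0.09 (SE, adjusted p = 0.325). Exons of Gss share 1102 bases with those of Acss2, Gssos1 and Gssos2, so its values may hold reads of these genes.

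Gsr, glutathione reductase, which returns oxidised glutathione to its reduced form with NADPH, was highest in control. Its level was 9.73, 8.78 and 10.4 FPKM in HFD+AOS-FMT, 14.0, 11.1 and 7.59 FPKM in HFD+control-FMT, and 9.87, 7.68 and 7.33 FPKM in HFD+AOS. It was 10.7, 11.2 and 6.57 FPKM in HFD, 10.0, 9.44 and 13.5 FPKM in AOS, and 29.1, 18.6 and 12.4 FPKM in control. Control libraries 1 and 2 lay above all 16 others, while control library 3 lay among the libraries of HFD+control-FMT and AOS. Gsr fell in HFD+AOS, at 8.29 ± 1.38 FPKM against 20.0 ± 8.43 FPKM in control (SD, n = 3 each), a log2 difference of -1.11 ± 0.26 (SE, adjusted p = 0.0441 by limma).

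The call of Gsr held without 7 of the 18 libraries and was lost without the other 11, which are all 3 of HFD+AOS-FMT, library 2 of HFD+control-FMT, all 3 of HFD+AOS, library 2 of HFD, library 1 of AOS and libraries 1 and 2 of control. Its adjusted p in these 18 fits ran from 0.00839 to 0.152. Without both control libraries 1 and 2 the difference of HFD+AOS was -0.54 (adjusted p = 0.451). In HFD against control Gsr narrowly missed the threshold, with -0.96 ± 0.26 (SE, adjusted p = 0.0541). It was called there without HFD library 1 or without control library 3, where 3818 of all genes were called. Without control libraries 1 and 2 that difference was -0.39 (adjusted p = 0.786). The differences in HFD+control-FMT, HFD+AOS-FMT and AOS were -0.78, -0.91 and -0.75 (adjusted p = 0.0833, 0.278 and 0.204). In HFD+AOS against control, 2.09% of all genes were called (0.285% called lower). All 8 plasma cell markers were called higher there (median 1.29), with a summed level of 1540 to 2630 FPKM in HFD+AOS and 608 to 1140 FPKM in control. Of 10 mature neutrophil markers, 2 were called lower there (median -1.83), with sums of 284 to 693 FPKM in HFD+AOS and 585 to 10500 FPKM in control. Their part in the difference of Gsr was not tested.

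G6pdx, glucose-6-phosphate dehydrogenase, the entry enzyme of the pentose phosphate pathway and a main source of NADPH, had the same outlying libraries. It was at 27.3, 31.1 and 27.0 FPKM in HFD+AOS-FMT, 27.6, 28.7 and 31.7 FPKM in HFD+control-FMT, and 29.9, 31.7 and 29.9 FPKM in HFD+AOS. It was at 31.0, 30.3 and 29.7 FPKM in HFD, 31.8, 31.2 and 31.8 FPKM in AOS, and 63.2, 38.2 and 31.9 FPKM in control. The 15 treated libraries lay between 26.95 and 31.79 FPKM, and control library 3 lay only just above them. The differences from control ran from -0.57 in HFD+AOS-FMT to -0.42 in AOS, and none was called (adjusted p = 0.273 and 0.232). In HFD against control the difference was -0.48 (adjusted p = 0.0849), and without control libraries 1 and 2 it was -0.07 (adjusted p = 0.884). Without control library 3, the lowest of its group, G6pdx was called in all 5 comparisons with control. The same fit called 3818 of all genes in HFD, 3104 in HFD+control-FMT, 1327 in HFD+AOS, 602 in HFD+AOS-FMT and 304 in AOS. With all libraries these counts were 357, 665, 271, 0 and 0. Exons of G6pdx share 418 bases with those of Ikbkg, and its copy G6pd2 was at 0 to 0.09 FPKM.

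With the neutrophil granule mean, G6pdx had a Pearson's r of 0.86 (permutation test, adjusted p = 0.0063) and a Spearman's rho of 0.25 (adjusted p = 0.4), and Gsr had an r of 0.85 (adjusted p = 0.0015) and a rho of 0.49 (adjusted p = 0.09). Without control libraries 1 and 2, r was -0.04 for G6pdx and 0.39 for Gsr, so both relations rest on those libraries. Gclm and Nqo1 also went with the granule mean (r of 0.66 and 0.64, adjusted p = 0.0053 and 0.0086; rho of 0.50 and 0.49, adjusted p = 0.09 each), with an r of 0.35 and 0.36 without them. The 10 granule genes summed to 296 to 454 FPKM in HFD+AOS-FMT, 366 to 439 in HFD+control-FMT, 151 to 472 in HFD+AOS, 249 to 550 in HFD, 261 to 630 in AOS and 326 to 6400 in control, and none was at 0. The 5 genes most like Gsr were Pglyrp1 (r = 0.89), 4930438A08Rik, Cd177 (r = 0.88 each), Prtn3 and Bmx (r = 0.86 each), and Prtn3 stands in the granule list. The part of the granule signal in the differences of Gsr and G6pdx was not tested beyond leaving out those libraries.

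**Figure D4:**
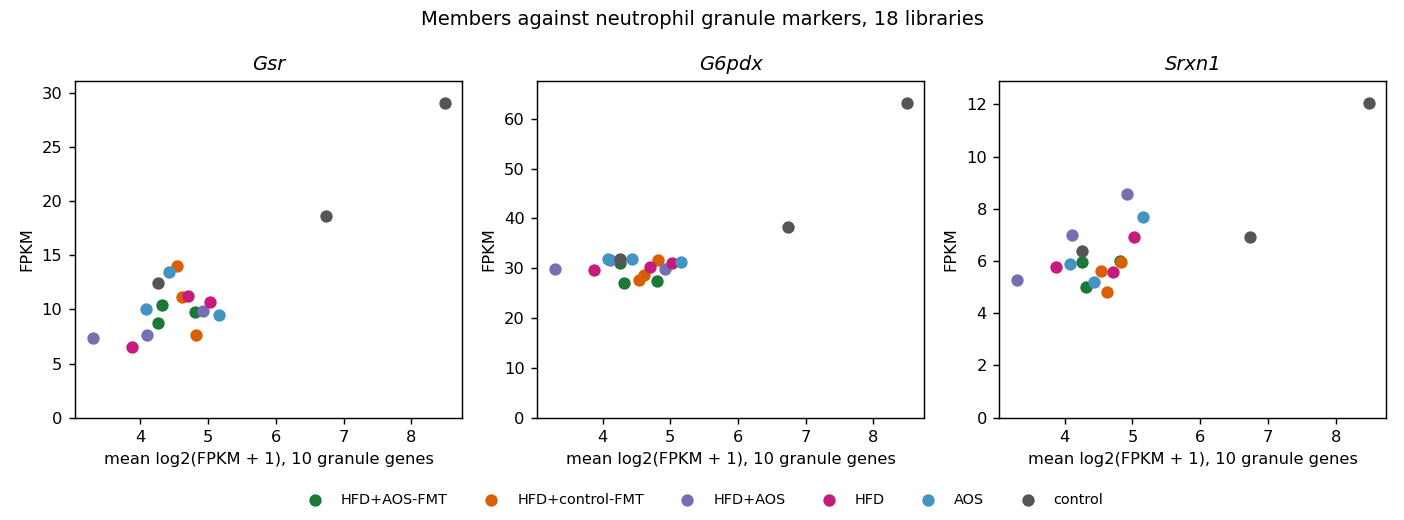
FPKM of Gsr, G6pdx and Srxn1 (vertical axes, from 0) against the mean log2(FPKM + 1) of 10 neutrophil granule genes (horizontal axes) in the 18 libraries, coloured by group. Control libraries 1 and 2 lie far to the right at 8.49 and 6.74, and without them r is 0.39 for Gsr, -0.04 for G6pdx and 0.45 for Srxn1.

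Srxn1, sulfiredoxin, which repairs overoxidised peroxiredoxins, had a single library far from the rest. It was at 5.99, 5.95 and 5.0 FPKM in HFD+AOS-FMT, 5.60, 4.82 and 5.97 FPKM in HFD+control-FMT, and 8.55, 7.01 and 5.28 FPKM in HFD+AOS. It was at 6.92, 5.59 and 5.75 FPKM in HFD, 5.89, 7.67 and 5.21 FPKM in AOS, and 12.1, 6.92 and 6.37 FPKM in control. Control library 1 was the high one, and the 2 transplanted groups lay below all control libraries. The difference from control was -0.46 in HFD+AOS-FMT (adjusted p = 0.391) and -0.50 in HFD+control-FMT (adjusted p = 0.12). In HFD+control-FMT it was called without control library 3, in a fit that called 3104 of all genes. In HFD+AOS the difference was -0.22 (adjusted p = 0.579), and without control library 1 it was 0.04. With the granule mean, Srxn1 had an r of 0.77 (permutation test, adjusted p = 0.0079) and a rho of 0.54 (adjusted p = 0.083), and r was 0.45 without control libraries 1 and 2.

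Txnrd1, the cytosolic thioredoxin reductase, is a selenoprotein that keeps thioredoxin reduced. It stayed within 18.5 to 25.1 FPKM, and its group means were 20.8 ± 1.98 FPKM in HFD+AOS-FMT, 20.1 ± 1.52 in HFD+control-FMT, 22.5 ± 0.87 in HFD+AOS, 22.7 ± 0.70 in HFD, 21.7 ± 1.57 in AOS and 23.1 ± 2.15 in control (SD, n = 3 each). All groups overlapped except HFD+control-FMT, whose 3 libraries lay below those of HFD and of HFD+AOS. HFD+control-FMT and HFD did not overlap for 10.2% of all tested genes. The difference of HFD+control-FMT from HFD was -0.17 ± 0.08 (SE, adjusted p = 0.999). The largest difference of Txnrd1 from control was also in HFD+control-FMT, at -0.19 (adjusted p = 0.158), and no comparison called it.

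Me1, the cytosolic malic enzyme, which makes NADPH for fatty acid synthesis, was highest in AOS. Its level was 3.49, 4.43 and 3.46 FPKM in HFD+AOS-FMT, 3.72, 3.51 and 4.08 FPKM in HFD+control-FMT, and 2.00, 4.33 and 4.06 FPKM in HFD+AOS. It was 3.54, 3.99 and 5.29 FPKM in HFD, 6.19, 8.51 and 4.68 FPKM in AOS, and 3.05, 5.11 and 5.18 FPKM in control. AOS lay above HFD+AOS-FMT, HFD+control-FMT and HFD+AOS without overlap, and overlapped HFD and control. HFD+AOS and AOS did not overlap for 11.3% of all tested genes. The log2 difference of HFD+AOS from AOS was -0.75 ± 0.23 (SE, adjusted p = 0.855), and that of AOS from control was 0.45 ± 0.23 (SE, adjusted p = 0.369). Among all tested genes the most like Me1 was Fasn, fatty acid synthase (r = 0.84 over 18 libraries, a gene named after its values were seen). Fasn averaged 16.1 ± 3.90 FPKM in AOS and 10.5 ± 1.87 FPKM in control (SD, n = 3 each, adjusted p = 0.124). The 8 adipocyte markers summed to 13.6 to 174 FPKM in HFD+AOS, 90.4 to 266 FPKM in AOS and 31.7 to 168 FPKM in control, none was at 0, and their part in the level of Me1 was not tested.

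Transplants from AOS-dosed donors were set against transplants from control donors to ask what the donor's dosing adds on the diet. In HFD+AOS-FMT against HFD+control-FMT none of the 10 genes was called (0.00771% of all genes), and 4 had an unadjusted p under 0.05 (10.5% of all genes), namely Gclc, Gclm, Nqo1 and Slc7a11. Groups did not overlap for 3 of the 10, Gclc, Gclm and Nqo1 (23.4% of all genes), and all 3 were higher with AOS-dosed donors. Gclc averaged 29.2 ± 0.21 FPKM in HFD+AOS-FMT and 21.1 ± 3.14 FPKM in HFD+control-FMT (SD, n = 3 each), a log2 difference of 0.46 ± 0.10 (SE, adjusted p = 0.239 by limma). The differences were 0.50 for Gclm (adjusted p = 0.425), 0.49 for Nqo1 (adjusted p = 0.434) and -0.37 for Slc7a11 (adjusted p = 0.425). Without HFD+control-FMT library 3, Gclc was called (7 of all genes in that fit). All 19 erythroid markers had a positive difference in the same comparison, with a median of 0.67 and none called.

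Against HFD, which shares its libraries with the next comparisons, HFD+AOS-FMT called none of the 10 genes (0.00% of all genes), with 3 at an unadjusted p under 0.05 (13.6% of all genes). Groups did not overlap for 4 of the 10 (22.9% of all genes): Gclc, Gclm and Nqo1 were higher, at 0.35, 0.56 and 0.59 on the log2 scale (adjusted p = 0.263, 0.283 and 0.27), and Slc7a11 lower, at -0.31 (adjusted p = 0.381). The median difference of the 19 erythroid markers here was 0.82, with none called. In HFD+control-FMT against HFD none was called (0.0154% of all genes) and none had an unadjusted p under 0.05 (4.63% of all genes). In HFD+AOS against HFD none was called (0.00% of all genes) and none had an unadjusted p under 0.05 (15.0% of all genes). There, Gclm had a log2 difference of 0.32 ± 0.21 (SE, adjusted p = 0.464), with HFD+AOS and HFD overlapping.

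Against control, HFD+AOS-FMT called none of the 10 genes (0.00% of all genes), with 3 at an unadjusted p under 0.05 (11.6% of all genes), which were Gsr, G6pdx and Srxn1. Groups did not overlap for 4 of the 10, those 3 and Gclm (12.9% of all genes), all lower in HFD+AOS-FMT. AOS against control called none (0.00% of all genes), with 5 at an unadjusted p under 0.05 (15.4% of all genes) and 4 without overlap (16.8% of all genes): Gclc, Gclm and G6pdx lower, Slc7a11 higher. Gclc in AOS was at 23.1 ± 2.11 FPKM against 30.2 ± 1.31 FPKM in control (SD, n = 3 each), a log2 difference of -0.38 ± 0.10 (SE, adjusted p = 0.135). Without control library 3, Gsr and G6pdx were called in HFD+AOS-FMT (602 of all genes in that fit) and G6pdx in AOS (304 of all genes). Groups did not overlap for 6 of the 10 genes in HFD against control (19.4% of all genes), for 5 in HFD+control-FMT (23.7% of all genes) and for 6 in HFD+AOS (17.2% of all genes).

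HFD+AOS against AOS called none (0.00% of all genes), with Me1 alone at an unadjusted p under 0.05 (5.34% of all genes). The 4 diet groups against the 2 others called none (0.0617% of all genes), with 5 at an unadjusted p under 0.05 (19.9% of all genes), namely Gclm, Gsr, Nqo1, G6pdx and Me1, all lower on the diet. Without control library 3, Gclm, Gsr, Nqo1 and G6pdx were called there, in a fit that called 2157 of all genes (8 with all libraries). The interaction, the difference of HFD+AOS from HFD less that of AOS from control, called none (0.00% of all genes), with 4 at an unadjusted p under 0.05 (15.9% of all genes). It was 0.48 ± 0.14 for Gclc (SE, adjusted p = 0.221), 0.79 for Gclm (adjusted p = 0.247), -0.59 for Slc7a11 (adjusted p = 0.246) and -0.72 for Me1 (adjusted p = 0.303). An F test over the 6 groups called none (0.116% of all genes), with 6 at an unadjusted p under 0.05 (22.0% of all genes), and Gclc had the smallest adjusted p, 0.0658.

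Some other genes of the pathway were called. Over all tested genes, 2.75% were called in HFD, 5.13% in HFD+control-FMT and 2.09% in HFD+AOS against control. Of 14 regulators of Nrf2, Btrc, an adaptor of a ubiquitin ligase that recognises phosphorylated Nrf2, fell in HFD by 0.50 on the log2 scale (adjusted p = 0.0443) and in HFD+control-FMT by 0.42 (adjusted p = 0.039). Mafk, a small Maf partner of Nrf2, fell in HFD by 0.31 (adjusted p = 0.0452), and the other 12 were not called in HFD. Nfe2l2 itself was called in no comparison. It is given for HFD+AOS against control, where it had one of the 2 smallest p of its list. Its level there was 46.2 FPKM in HFD+AOS and 52.2 FPKM in control (adjusted p = 0.214). Of 20 other Nrf2 targets tested, 1 was called in HFD, Akr1b3, aldose reductase, which rose by 0.37 (adjusted p = 0.0475), and the list's median was -0.08.

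Of 24 genes that use glutathione, none was called in HFD, and Gstm1, a glutathione transferase, fell in HFD+AOS by 0.81 (adjusted p = 0.0229). Hagh, of the glyoxalase system, had the smallest p of that list in HFD, at 42.2 FPKM in HFD and 77.1 FPKM in control (adjusted p = 0.0511). Of 16 genes of glutathione breakdown and precursor supply tested, Chac2, which degrades glutathione, fell in HFD to 33.6 FPKM, against 69.0 FPKM in control (log2 difference -1.05, adjusted p = 0.0452), and Anpep, an aminopeptidase, rose by 0.44 (adjusted p = 0.045). Chac2 also fell in HFD+control-FMT, by 0.94 (adjusted p = 0.0404).

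Of 17 thioredoxin and peroxiredoxin genes, Prdx6 was called, in HFD+control-FMT, where it fell by 0.24 (adjusted p = 0.0439). Of 16 genes of NADPH supply tested, the folate enzymes Mthfd1 and Aldh1l1 fell in HFD+control-FMT, by 0.38 and 0.54 (adjusted p = 0.0395 and 0.0426), and none was called in HFD. None of 17 targets of ATF4, the factor of the amino acid response, and none of 10 tested genes of fatty acid synthesis was called in any comparison. In HFD against control, 9 of the ATF4 targets had a positive and 8 a negative difference, with a median of 0.01.

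These calls of pathway genes rest on the settings used. In HFD against control, no gene of the 12969 was called without 11 of the 18 libraries, each left out alone, and Btrc, Mafk, Akr1b3, Chac2 and Anpep each kept the call in 4 or 5 of those 18 fits. All 5 also lost it with no filter, with median ratio scaling, with haemoglobin genes left out and with only the 2 groups compared. In HFD+control-FMT against control, Btrc kept its call in 10 of the 18 fits, Chac2 and Mthfd1 in 9, Aldh1l1 in 7 and Prdx6 in 5. Gstm1 in HFD+AOS against control kept it in 14. All 11 of these calls were lost without control library 1, without control library 2 and with only the groups compared, and none changed direction in any fit.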

How the data were processed

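The deposited table holds 19326 gene symbols in 18 columns, matched to the labels by group code and number. Alignment used Bowtie 0.12.2 and the mm10 genome, per the submitters' processing notes. The deposited values, made by the authors, were taken to be FPKM because of how they sum: summed value times transcript length varied by 0.785% between libraries, against 7.55% for plain totals, which RPKM would give too. How reads were counted, on which gene models and after which filters is not given in the sources used here. The values do not fall on steps of whole reads, so the depth is unknown, no counting interval is given, and plain totals ran from 627964 to 831448 FPKM.

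Values were analysed as log2(FPKM + 1), the pseudocount being 1. Genes reaching a group mean of 1 FPKM in any group (12969) entered 1 fit of all 18 libraries with limma 3.58.1 under R 4.3.3, with a variance trend, robust estimation (statmod 1.5.0) and 12 residual degrees of freedom. All p-values were adjusted within each comparison (Benjamini-Hochberg, 0.05). The method was tested on simulated data with noise drawn independently for each gene. That setting cannot show how calls behave under variation shared between genes. Summaries and permutations (100000) used Python 3.11.15, numpy 2.4.6 and pandas 2.3.3, and figures matplotlib 3.10.9. Exon overlaps came from GENCODE M21 on GRCm38 and promoters from RefSeq on GRCm38.p6.

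The 10 genes, the 8 pathway lists, the 14 marker lists and the tests were chosen with earlier results of these data known. Other genes were named where they were called (at most 6 a list, by p), otherwise the 2 with the smallest p, and the 5 most alike for each called gene. Alternatives changed the pseudocount, filter, scaling, variance model, libraries and replicate block. Libraries with equal numbers deviated together in all 3 pairs (r above 0.1) only for HFD+AOS against HFD (0.236, 0.268 and 0.191) and HFD+AOS against AOS (0.493, 0.388 and 0.318), and a block there called none of the 10 genes (33 of all genes in HFD+AOS against HFD, where no gene was called without it).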

Additional observations from a re-analysis of the deposited data

How the results depend on the processing

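None of the 5 called differences changed direction under any of its 29 or 30 alternatives, and 71 of the 147 pairs of a difference and an alternative kept the call. The number of the 10 genes called in HFD against control was 2. It was 0 with no filter, median ratio scaling, quantile normalization, haemoglobin genes left out, no trend or robust variance, or only the groups compared, and 4 with a minimum of 5 FPKM. In HFD+control-FMT against control it was 2, with 1 under no filter or median ratio scaling and 0 with only the groups compared. In HFD+AOS against control it was 1, with 0 under no filter, median ratio scaling, quantile normalization or only the groups compared.

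With the replicate number as a block, 4 genes were called in HFD and 4 in HFD+control-FMT against control (Gclc, Gclm, Gsr and Nqo1 in each), and no other count moved. Over all genes, HFD against control called 357, and 1842 with the block, 625 with the minimum of 5 FPKM, 168 without trend and robust variance and 5 with quantile normalization. It called 0 with no filter, median ratio scaling, haemoglobin genes left out or only the groups compared, and 0 to 3818 with single libraries left out (0 without 11 of the 18, the most without control library 3). The labels do not say that these numbers pair libraries.

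Without HFD libraries 2 and 3, an alternative chosen after seeing the data, 0 were called in HFD. Without control libraries 1 and 2, also chosen so, 0 were called in every comparison with control. Each of these fits leaves 1 library in a group, assumed to vary like the others.

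With single libraries left out, the count ran from 0 to 5 in HFD, 0 to 6 in HFD+control-FMT, 0 to 2 in HFD+AOS, 0 to 2 in HFD+AOS-FMT and 0 to 1 in AOS against control. It ran from 0 to 1 in HFD+AOS-FMT against HFD+control-FMT, 0 to 4 for the diet groups and 0 to 3 in the F test. Control library 3 gave the highest count in each but the comparison of the transplants. Over all genes, the count ran from 0 to 3818 in HFD, 5 to 3104 in HFD+control-FMT and 0 to 1327 in HFD+AOS against control. It was 0 to 602 in HFD+AOS-FMT and 0 to 304 in AOS against control, 1 to 7 between the transplants and 0 to 2157 for the diet groups. The highest came without control library 3, or between the transplants without HFD+control-FMT library 3. The cause of these changes was not tested, and depth is unknown.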
